A study of Homo sapiens with 2 samples.

Results

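The genes that encode ubiquitin-conjugating enzymes and deubiquitinases were compared between 2 RNA sequencing libraries of NB4 cells. NB4 is a human acute promyelocytic leukemia line with the PML/RARα fusion. Genes were taken as members by their symbols alone, which were UBE2 followed by a letter, USP followed by a number, OTUB or OTUD, and UCHL. The rule found 82 members among the 11619 genes listed, namely 32 genes of the UBE2 family and 50 deubiquitinase genes (42 USP, 6 OTU and 2 UCH genes). GENCODE release 44 holds 104 protein-coding genes with such symbols, and the other 22 were not analysed here.

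One library came from cells infected with lentivirus for an shRNA against CRNDE (sh-CRNDE), a long noncoding RNA, and the other from cells infected with lentivirus for a non-targeting shRNA (sh-Control). Both were harvested 3 days after infection, and which of the study's CRNDE shRNAs the sequenced cells carried is not stated in the sources used here. The study asked what CRNDE does in this leukemia, and whether it acts through the miR-181 family of microRNAs. With 1 library per group there was no replicate, so no difference given here has a test, an SD or a p-value, and each describes these 2 libraries.

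Ubiquitin is a small protein that cells attach to other proteins as a tag. An E1 enzyme activates it, an E2 enzyme (the UBE2 family) carries it, and an E3 ligase picks the substrate. The E2 often sets which lysine of ubiquitin is used to build a chain, and so whether the tagged protein goes to the proteasome or takes part in signaling or DNA repair. Deubiquitinases cut ubiquitin off again, and most belong to the USP, OTU or UCH families. In acute promyelocytic leukemia the system is known from treatment, because arsenic trioxide leads to SUMO and then ubiquitin conjugation of PML/RARα and its loss through the proteasome.

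Levels are in FPKM, fragments per kilobase of transcript scaled by the mapped fragments of the library, and keep no read counts, so the depth of the libraries is unknown. The difference of a gene is its log2(FPKM + 1) in sh-CRNDE minus that in sh-Control. The added 1 understates the difference of lowly expressed genes. A difference past 1.5-fold, 0.585 on this scale, is called higher or lower below. Where a pair of levels is given without group names, the first is that of sh-Control. Every listed gene was above 0.5 FPKM in at least 1 library. CRNDE itself was at 5.92 FPKM in sh-Control against 1.85 FPKM in sh-CRNDE, a difference of -1.28. Of 9 promyelocyte markers 8 were listed, and their summed level was 1431 FPKM in sh-Control against 831 FPKM in sh-CRNDE. Most of both sums came from 1 marker, at 1135 FPKM in sh-Control against 738 FPKM in sh-CRNDE. Of the 8 markers 5 were lower past 1.5-fold, compared with 8.83% of all listed genes, and the rest were inside it. Of markers of other cell types, CD3E, HBB and COL1A1 were not among the listed genes, EPCAM was at 4.82 FPKM and 4.49 FPKM, and PECAM1 was at 2.76 FPKM and 2.71 FPKM. The part of the marker difference in the results below was not tested.

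Members ranged from 0.550 FPKM (UBE2L6) to 42.2 FPKM (USP22) in sh-Control, and from 0.362 FPKM (USP31) to 73.8 FPKM (UBE2K) in sh-CRNDE. None was listed at 0, and 76 of the 82 were at or above 1 FPKM in both libraries. The median member was at 8.46 FPKM in sh-Control against 7.71 FPKM in sh-CRNDE, against 3.95 FPKM and 3.89 FPKM for all listed genes. The 5 members with the highest mean level were UBE2K, USP1, USP22, UBE2M and UBE2N. Of these, USP1, which removes ubiquitin from FANCD2 and PCNA in DNA repair, was at 36.8 FPKM and 41.0 FPKM. USP22, the histone H2B deubiquitinase of the SAGA coactivator, was at 42.2 FPKM and 34.3 FPKM. Together the 32 E2 genes summed to 385 FPKM in sh-Control against 497 FPKM in sh-CRNDE. Without UBE2K these sums were 371 FPKM and 424 FPKM. All listed genes summed to 141217 FPKM in sh-Control against 170373 FPKM in sh-CRNDE. The 82 members made up 0.599% and 0.565% of these totals. The largest difference of any listed gene was 14.75, and a gene with such a difference weighs heavily on the sh-CRNDE total. The share of the members is therefore not compared between the libraries. The median E2 gene was at 12.6 FPKM and 8.38 FPKM, while 20 of the 32 E2 genes had a difference above 0 and their median difference was 0.12. The 50 deubiquitinase genes summed to 461 FPKM and 465 FPKM, with medians of 6.20 FPKM and 6.80 FPKM.

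Most members were at similar levels in both libraries, and 12 of the 82 (14.6%) were past 1.5-fold. Over all listed genes 17.2% were past it, 8.38% higher and 8.83% lower, so the members' share was near the background. Higher in sh-CRNDE were 5 members, UBE2K, UBE2D4, UBE2M, UBE2S and OTUD6B. Lower were 7 members, UBE2V1, UBE2G1, USP46, USP31, USP21, USP19 and UBE2D3. The median difference of the members was 0.08, and that of all listed genes was -0.01. The difference was within 0.3 of 0 for 55 members (67.1%), compared with 58.0% of all listed genes. E2 genes held 7 of the 12, with 7 of 32 (21.9%) past 1.5-fold, 4 higher and 3 lower. Of the deubiquitinase genes 5 of 50 (10%) were past it, 1 higher and 4 lower, and all 4 lower ones were USP genes. The threshold fell between UBE2D3, the nearest member past it at -0.62, and USP35, UBE2T and UBE2N, the nearest members inside it at -0.52, 0.50 and 0.50.

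**Figure D1:**
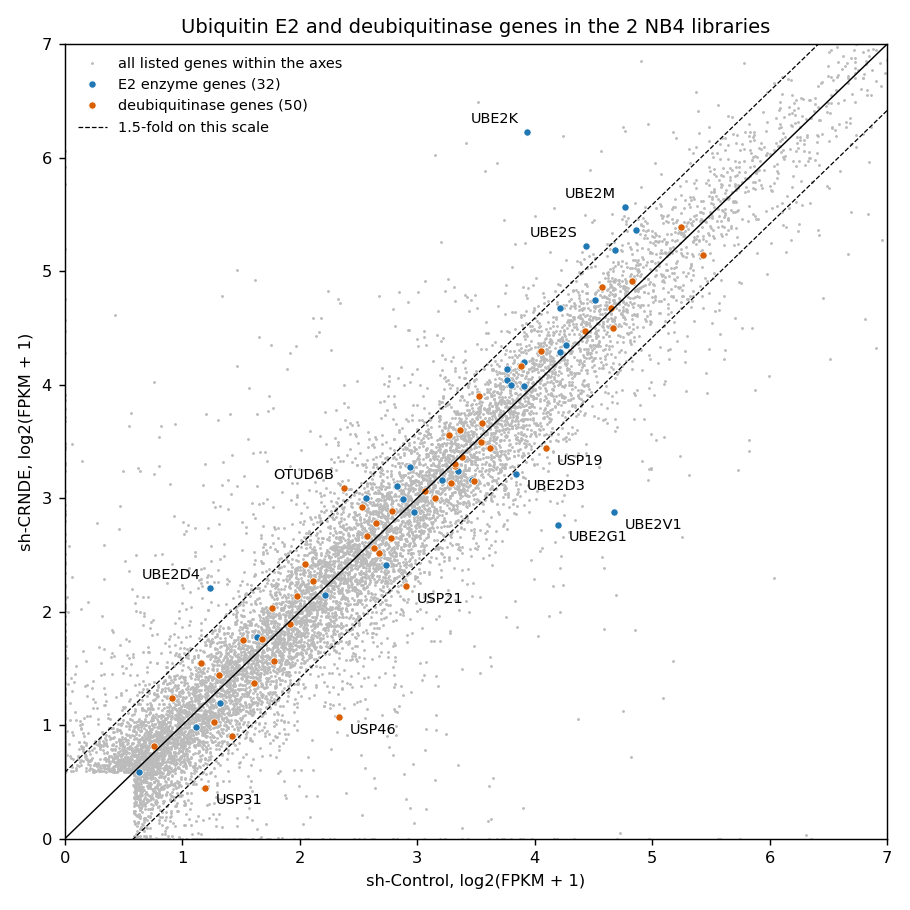
Level of each gene in sh-Control (x axis) against that in sh-CRNDE (y axis), both as log2(FPKM + 1), with 1 library per group. Blue points are the 32 E2 genes, orange points the 50 deubiquitinase genes and grey points the listed genes that lie within the axes; the solid line marks equal levels and the dashed lines 1.5-fold. The 12 named members lie outside the dashed lines, UBE2K farthest above and UBE2V1 farthest below.

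**Figure D2:**
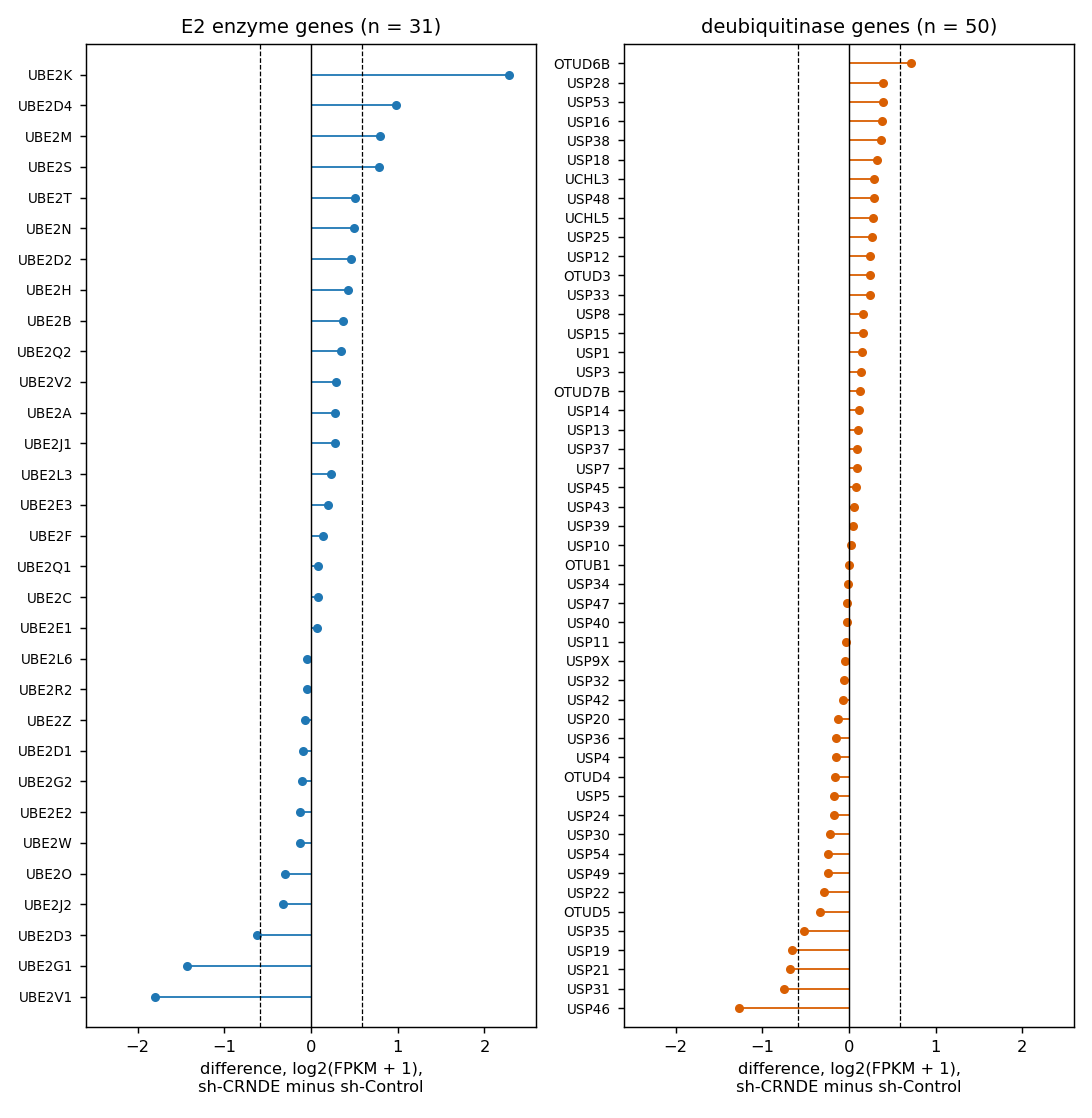
Difference in log2(FPKM + 1), sh-CRNDE minus sh-Control, of 31 E2 genes (left) and of the 50 deubiquitinase genes (right), ordered by value, with dashed lines at 1.5-fold; 1 of the 32 E2 genes, inside 1.5-fold, is not shown. E2 genes spread from -1.80 (UBE2V1) to 2.29 (UBE2K), and deubiquitinase genes from -1.26 (USP46) to 0.71 (OTUD6B).

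UBE2K had the largest difference of the members. It is an E2 that builds K48-linked ubiquitin chains, the main signal for the proteasome, by itself. UBE2K (ENSG00000078140, chr4:39698109-39782792, + strand of GRCh38, 7 exons in the canonical transcript) was at 14.3 FPKM in sh-Control against 73.8 FPKM in sh-CRNDE. The ratio was 5.15 and the difference 2.29, and 0.671% of all listed genes had a higher difference. UBE2K was the most abundant member in sh-CRNDE, where it made up 7.67% of the members' summed level. No 50-base stretch of its canonical transcript was found in the transcripts of another GENCODE gene, so no annotated copy shares such reads with it. It was the only one of the 82 members more than 2-fold higher on the log2(FPKM + 1) scale.

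Within the same class, the E2 enzymes of K48-linked chains and of degradation at the endoplasmic reticulum, UBE2G1 moved the other way. UBE2G1 (ENSG00000132388, chr17:4269259-4366675, - strand, 6 exons) extends K48-linked chains on substrates of cullin-RING ligases, and was at 17.4 FPKM in sh-Control against 5.79 FPKM in sh-CRNDE, a difference of -1.43. Its closest paralog UBE2G2, which works with ligases of the endoplasmic reticulum, was at 9.15 FPKM and 8.46 FPKM. UBE2G1 was thus 1.90 times as abundant as UBE2G2 in sh-Control and 0.685 times in sh-CRNDE, and the sum of both was 26.5 FPKM and 14.3 FPKM. The other members of the class were inside 1.5-fold, with differences of -0.32 for UBE2J2, -0.05 for UBE2R2 and 0.28 for UBE2J1. The median of the 6 was -0.08.

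The E2 complex for K63-linked chains, which serve signaling and DNA damage tolerance, pairs the active enzyme UBE2N with an inactive partner, UBE2V1 or UBE2V2. UBE2V1 (ENSG00000244687, chr20:50081124-50115959, - strand, 4 exons) had the lowest difference of the members, with 24.6 FPKM in sh-Control against 6.33 FPKM in sh-CRNDE, a difference of -1.80. UBE2N was at 28.2 FPKM and 40.1 FPKM, and UBE2V2 at 14.0 FPKM and 17.4 FPKM, both inside 1.5-fold. UBE2V1 made up 63.7% of the summed level of both partners in sh-Control and 26.7% in sh-CRNDE, so UBE2V2 was the more abundant partner in sh-CRNDE. The level of both partners together was 1.37 times that of UBE2N in sh-Control and 0.592 times in sh-CRNDE. Reads of UBE2V1 cannot be told apart from those of a read-through gene, PEDS1-UBE2V1, that holds 97.9% of the 50-base stretches of its canonical transcript and was not analysed here. The gene upstream in that read-through, listed as TMEM189, was at 4.33 FPKM and 3.57 FPKM. UBE2N shares 2474 exonic bases with NUDT4 on the opposite strand, and NUDT4 was at 1.06 FPKM and 4.15 FPKM. Transcripts of NUDT4 hold 50% of the 50-base stretches of UBE2N, counted on either strand. The part of NUDT4 reads in the level of UBE2N was not tested.

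The promoters of these 3 genes, which had the largest differences with the pseudocount of 1, are shown as the 250 bases before each gene's start in RefSeq (GRCh38.p14). This start can differ from that of the gene interval given above. The window of UBE2V1 lies inside its interval, and the end of the UBE2K window overlaps its interval. Capitals mark matches to GGGCGG, the GC box of Sp factors, or to GCATGCGC, the core of the NRF1 site, on either strand.
UBE2K, chr4:39697886-39698135, + strand: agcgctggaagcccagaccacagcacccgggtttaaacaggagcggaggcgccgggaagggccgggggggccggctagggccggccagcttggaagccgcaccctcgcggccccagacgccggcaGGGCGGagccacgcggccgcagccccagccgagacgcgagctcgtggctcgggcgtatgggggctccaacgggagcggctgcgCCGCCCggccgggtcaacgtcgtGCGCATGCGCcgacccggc
UBE2V1, chr20:50113151-50113400, - strand: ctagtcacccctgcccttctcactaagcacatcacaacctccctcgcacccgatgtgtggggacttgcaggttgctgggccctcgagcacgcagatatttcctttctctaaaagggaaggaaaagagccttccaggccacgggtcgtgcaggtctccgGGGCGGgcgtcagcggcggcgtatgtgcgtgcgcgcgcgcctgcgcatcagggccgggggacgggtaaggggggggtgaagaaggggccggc
UBE2G1, chr17:4366676-4366925, - strand: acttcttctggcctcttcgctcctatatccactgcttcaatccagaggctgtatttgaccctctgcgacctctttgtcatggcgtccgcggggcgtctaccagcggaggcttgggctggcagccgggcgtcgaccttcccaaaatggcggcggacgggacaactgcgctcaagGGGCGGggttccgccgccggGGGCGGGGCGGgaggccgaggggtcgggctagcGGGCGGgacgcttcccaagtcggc
All 3 hold a GC box. UBE2G1 has 4 and UBE2V1 has 1, while in UBE2K the last capitals are 2 overlapping matches of the NRF1 core on opposite strands.

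Such promoters were common among the members. Of the 82 members 66 had a RefSeq promoter entry, with a median GC content of 70.4% and a median of 27.5 CpG pairs, compared with 64.8% and 21 for the 11418 listed genes with an entry. A GC box was found in 55 of the 66 (83.3%), in 64.6% of promoters of listed genes and in 42.6% of all 35116 promoters. It was present in 3 of the 4 higher members with an entry and in 6 of the 6 lower ones, so its presence did not separate higher from lower members. The CCAAT box was found in 28.8% of the members and 33.6% of listed genes. The ETS site CCGGAAGT was in 7.58% and 6.93% of them, and the NRF1 core in 7.58% and 4.68%. The E-box, written CACGTG, was in 3.03% and 8.72%. The TATA motif as spelled under UBE2S below was in 4.55% and 5.38%. All were searched on both strands.

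The 4 UBE2D genes encode nearly alike E2 enzymes that work with many E3 ligases, and their levels shifted between paralogs while their sum was 39.0 FPKM and 42.8 FPKM. UBE2D4 (ENSG00000078967, chr7:43926436-43956136, + strand, 7 exons) measured 1.35 FPKM in sh-Control against 3.64 FPKM in sh-CRNDE, a difference of 0.98. UBE2D3 (ENSG00000109332, chr4:102794383-102868896, - strand, 8 exons) measured 13.3 FPKM and 8.30 FPKM, a difference of -0.62. UBE2D2, at 17.5 FPKM and 24.5 FPKM, and UBE2D1, at 6.83 FPKM and 6.35 FPKM, were inside 1.5-fold. The ratio of UBE2D3 to UBE2D2 was 0.761 in sh-Control against 0.339 in sh-CRNDE. Of the 50-base stretches of UBE2D2, 1.25% were also found in UBE2D3, so few reads could be assigned to either paralog. UBE2D4 shares 729 exonic bases with POLR2J4 on the opposite strand, and the listed POLR2J4 gene that overlaps it was at 0.834 FPKM and 1.04 FPKM. In the whole class of 14 broad-range E2 genes these were the only members past 1.5-fold, with a median difference of 0.08.

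Among the 5 E2 genes of mitosis and DNA repair, every difference was above 0, from 0.08 to 0.78, and 1 was past 1.5-fold. UBE2S (ENSG00000108106, chr19:55399745-55407788, - strand, 4 exons) elongates the chains that the anaphase-promoting complex builds in mitosis, and was at 20.7 FPKM in sh-Control against 36.3 FPKM in sh-CRNDE, a difference of 0.78. UBE2C, which starts those chains, was at 18.3 FPKM and 19.3 FPKM, and the ratio of UBE2S to UBE2C was 1.13 and 1.88. The pseudogenes UBE2SP1 and UBE2SP2 share 13.4% and 9.96% of the 50-base stretches of UBE2S. They had levels of 2.04 FPKM and 0.993 FPKM in sh-Control, were listed at 0 in sh-CRNDE, and with both added UBE2S was at 23.7 FPKM and 36.3 FPKM, a difference of 0.59. UBE2T, the E2 of the Fanconi anemia pathway, was at 24.7 FPKM and 35.4 FPKM. UBE2A and UBE2B, which ubiquitinate PCNA with RAD18, were at 12.6 FPKM and 15.5 FPKM, and at 12.6 FPKM and 16.6 FPKM. The median difference of the 5 was 0.37, and it was 0.16 once the median of genes with a like GC content was taken off, as described below.

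UBE2S is shown because it was the one higher member whose promoter held a TATA box, directly after a GC box. Capitals mark CCAAT (here on the other strand), the GC box and TATAAA.
UBE2S, chr19:55407789-55408038, - strand: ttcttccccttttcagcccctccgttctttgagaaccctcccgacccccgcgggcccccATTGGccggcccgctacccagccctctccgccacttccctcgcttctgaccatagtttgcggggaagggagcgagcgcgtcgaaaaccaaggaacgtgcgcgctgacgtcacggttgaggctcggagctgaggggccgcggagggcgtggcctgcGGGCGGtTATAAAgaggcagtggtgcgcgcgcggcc

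The E2 enzymes of ubiquitin-like proteins included UBE2M (ENSG00000130725, chr19:58555712-58558954, - strand, 6 exons), which attaches NEDD8 to cullins and so activates cullin-RING ligases. It was at 26.2 FPKM in sh-Control against 46.4 FPKM in sh-CRNDE, a difference of 0.80. A pseudogene, UBE2MP1, holds 14.1% of its 50-base stretches and was not among the listed genes. UBE2F, the second NEDD8 E2, which serves CUL5, was at 2.11 FPKM and 2.42 FPKM. UBE2L6, the E2 of the interferon-induced modifier ISG15, had the lowest level of the members in sh-Control, at 0.550 FPKM and 0.505 FPKM.

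Of the 6 OTU genes 1 was past 1.5-fold. OTUD6B (ENSG00000155100, chr8:91070196-91087095, + strand, 7 exons) measured 4.18 FPKM in sh-Control against 7.49 FPKM in sh-CRNDE, a difference of 0.71. Its antisense gene OTUD6B-AS1, which shares 271 exonic bases with it, was at 2.91 FPKM and 4.49 FPKM, and the sources do not state that strand was used in counting. The other OTU genes had differences from -0.33 (OTUD5) to 0.24 (OTUD3). The UCH genes were both inside 1.5-fold. UCHL5, bound to the proteasome as is USP14, was at 13.8 FPKM and 17.0 FPKM, UCHL3 at 22.8 FPKM and 28.0 FPKM, and USP14 at 10.7 FPKM and 11.7 FPKM.

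With the pseudocount of 1, no USP gene was higher past 1.5-fold, and 4 of the 42 were lower. USP46 (ENSG00000109189, chr4:52590960-52659301, - strand, 9 exons) measured 4.04 FPKM in sh-Control against 1.10 FPKM in sh-CRNDE, a difference of -1.26. USP12, its closest paralog, was at 15.6 FPKM and 18.7 FPKM, so that their sum was 19.6 FPKM and 19.8 FPKM, and USP12 made up 79.4% of it in sh-Control and 94.4% in sh-CRNDE. Both enzymes are activated by WDR48 and WDR20. WDR48, which also activates USP1, was at 4.38 FPKM and 4.36 FPKM, while WDR20 was at 1.68 FPKM and 0.693 FPKM, a difference of -0.66. USP31 (ENSG00000103404, chr16:23061406-23149452, - strand, 16 exons) measured 1.29 FPKM and 0.362 FPKM, the lowest level of any member in sh-CRNDE, with a difference of -0.75. A GENCODE gene that was not among the listed genes holds 25.1% of its 50-base stretches.

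USP21 (ENSG00000143258, chr1:161159450-161165723, + strand, 14 exons), which removes ubiquitin from histone H2A, was at 6.50 FPKM in sh-Control against 3.67 FPKM in sh-CRNDE, a difference of -0.68. USP19 (ENSG00000172046, chr3:49108046-49120938, - strand, 27 exons), of which a form sits in the membrane of the endoplasmic reticulum, was at 16.1 FPKM and 9.84 FPKM, a difference of -0.66. USP genes of low level crossed 1.5-fold when less was added. With 0.1 or 0.01 in place of 1, USP35, at 1.68 FPKM and 0.871 FPKM, was lower, at -0.88 and -0.94, and USP53, at 1.23 FPKM and 1.92 FPKM, was higher, at 0.60 and 0.64. With 0.01 USP18, which removes ISG15, was higher too, at 0.62, from 0.885 FPKM and 1.36 FPKM. Transcripts of other GENCODE genes hold 52.9% of the 50-base stretches of USP18. USP7, which stabilizes MDM2 and p53, was at 27.4 FPKM and 29.2 FPKM, and USP10 at 24.1 FPKM and 24.5 FPKM. The median difference of the 42 USP genes was 0.00.

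GC content moved with the difference over all genes. In 20 bins of genes at or above 1 FPKM in both libraries, ordered by the GC content of the canonical transcript, the median difference went from 0.21 at 35.7% GC to -0.38 at 65.5% GC. The members had a median GC content of 44.3%, against 48.1% for all listed protein-coding genes. The 41 members at or under that median had a median difference of 0.16, with 28 above 0, and the 41 over it had one of -0.04, with 18 above 0. All genes at or above 1 FPKM in both libraries, divided at the same GC content, had medians of 0.15 and -0.10. The members were not filtered by level for this. With the bin median subtracted, the members' median difference was 0.03. OTUD6B (0.50), USP19 (-0.47) and USP21 (-0.50) were then inside 1.5-fold, while UBE2K (2.08), UBE2V1 (-1.88), UBE2G1 (-1.55), USP46 (-1.39), UBE2M (1.07) and UBE2S (0.90) were still past it, as were UBE2D4 (0.95), USP31 (-0.82) and UBE2D3 (-0.80).

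The members were longer and had more exons than other genes, with a median canonical transcript of 4310 bases and 11 exons against 3254.5 bases and 9 exons for all listed protein-coding genes. E2 genes were shorter (2855.5 bases, 6 exons) than deubiquitinase genes (5186.5 bases, 18 exons). Of the 82 canonical transcripts, 31 shared no 50-base stretch with the transcripts of another gene, 22 shared more than 10% and 7 more than 50%. Among the 12 members past 1.5-fold, UBE2V1 was the only one above 50%, and USP31, UBE2S, UBE2D4 and UBE2M were above 10%.

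The miR-181 family is the one the study examined together with CRNDE, and the members were searched for its target site. The mature sequences from RefSeq are shown with the seed, bases 2 to 8, in capitals. All 4 share it.
hsa-miR-181a-5p: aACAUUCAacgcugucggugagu
hsa-miR-181b-5p: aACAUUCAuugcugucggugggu
hsa-miR-181c-5p: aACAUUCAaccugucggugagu
hsa-miR-181d-5p: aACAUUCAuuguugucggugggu
The site, TGAATGT, pairs with this seed. It was found in the longest annotated 3′ UTR of 24 of the 82 members (29.3%) and of 22.5% of the 9908 listed genes with a 3′ UTR. Members with a site had longer 3′ UTRs than those without, with medians of 4356.5 and 1604.5 bases. The median difference was 0.09 for the 24 members with a site and 0.07 for the 58 without, and 4 of the 24 (16.7%) and 8 of the 58 (13.8%) were past 1.5-fold. For all listed genes with a 3′ UTR, the medians were 0.05 with a site and -0.03 without, and 15.3% and 15.5% were past 1.5-fold.

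The 4 members past 1.5-fold that hold a site lay on both sides, UBE2K higher and USP31, USP46 and UBE2D3 lower. Their sites are shown in 30-base windows of the mRNA strand (GRCh38), with the site in capitals.
UBE2K, chr4:39782134-39782163, + strand: aaatggaagtctTGAATGTgtcaccttttg
USP46, chr4:52597310-52597339, - strand: tgacatttcctaTGAATGTctacggtctgt
UBE2D3, chr4:102795046-102795075, - strand: aaccaacattttTGAATGTatggacactgg
USP31, chr16:23065920-23065949, - strand: tatatcaggaatTGAATGTctaactcaaac
USP31, chr16:23062399-23062428, - strand: ttagtttgaaaaTGAATGTgaaacattttc
Of these sites that of UBE2D3 is followed by an A, which makes it an 8-base site. There were 9 members with such a site, with a median difference of -0.03, and UBE2D3 was the one of them past 1.5-fold. A match is a run of letters in the annotated 3′ UTR, and binding was not measured in these libraries.

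Other genes of the pathway were taken from 10 lists with 105 listed genes in all. Of these, 10 were higher and 7 lower past 1.5-fold (16.2%), near the background of 17.2%, and their median difference was 0.09. None of the 9 E1 genes was past it, and their median was -0.12. Of the 4 ubiquitin precursor genes 1 was lower past 1.5-fold, with a difference of -1.69, and the median of the 4 was -0.06. Among 46 proteasome subunit genes 1 was past 1.5-fold, higher, and the median was 0.07.

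In the NEDD8 pathway and cullin scaffolds, 2 of 15 genes were higher and 1 lower. NEDD8 itself was at 7.32 FPKM in sh-Control against 20.4 FPKM in sh-CRNDE, a difference of 1.36. RBX1, the RING subunit that UBE2M serves, was at 6.76 FPKM and 12.3 FPKM, a difference of 0.78. RNF7, the RING subunit that UBE2F serves, was at 7.84 FPKM and 2.35 FPKM, a difference of -1.40. Thus UBE2M, NEDD8 and RBX1 were all higher. Of the 15 genes 12 had a difference above 0, with a median of 0.10, but with the GC-bin median subtracted 6 were above 0 and the median was -0.06, while NEDD8, RBX1 and RNF7 were still past 1.5-fold.

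Of 16 subunits of the anaphase-promoting complex, the ligase that UBE2C and UBE2S serve, none was higher and 2 were lower, with a median of -0.11. ANAPC13 was at 17.1 FPKM in sh-Control against 5.14 FPKM in sh-CRNDE, and ANAPC16 at 15.9 FPKM and 7.40 FPKM. Of 13 genes of the Fanconi and USP1 complexes, FANCG, at 14.8 FPKM and 9.15 FPKM, and WDR20 were lower. FANCF was listed at 0 in sh-Control against 0.927 FPKM in sh-CRNDE. FANCL, the ligase that UBE2T serves, had a difference of 0.31, and RAD18 one of 0.14. Of the 3 other genes of the SAGA deubiquitinase module, ENY2 was higher, at 4.31 FPKM and 7.92 FPKM. After GC subtraction ENY2 (0.57) and FANCG (-0.45) were inside 1.5-fold, and ATXN7L3, another gene of that module, was past it (0.74).

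Of 13 SUMO pathway genes 2 were higher and none lower. SENP2, a SUMO protease, was among the higher ones, at 5.16 FPKM and 9.14 FPKM. The median of the list was 0.26, with 10 of 13 above 0. With the GC-bin median subtracted, the median of the list was 0.18, with 9 above 0, and SENP2 (0.65) was the 1 gene past 1.5-fold. In the ISG15 pathway TRIM25, an E3 ligase of interferon signaling, was at 13.4 FPKM and 2.64 FPKM, a difference of -1.99. Among 21 deubiquitinases outside the symbol rule, 3 were higher and none lower, with a median of 0.14. These were MYSM1, a histone H2A deubiquitinase, at 2.92 FPKM and 6.71 FPKM, STAMBP, a metalloprotease for K63-linked chains, at 2.67 FPKM and 4.68 FPKM, and ZUFSP, at 5.19 FPKM and 8.86 FPKM. After GC subtraction STAMBP (0.56) and ZUFSP (0.49) were inside 1.5-fold and JOSD1 (0.59) was past it. Among 8 listed E2 genes outside the rule, UFC1, the E2 of the modifier UFM1, was at 11.9 FPKM and 24.9 FPKM, a difference of 1.01.

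**Figure D3:**
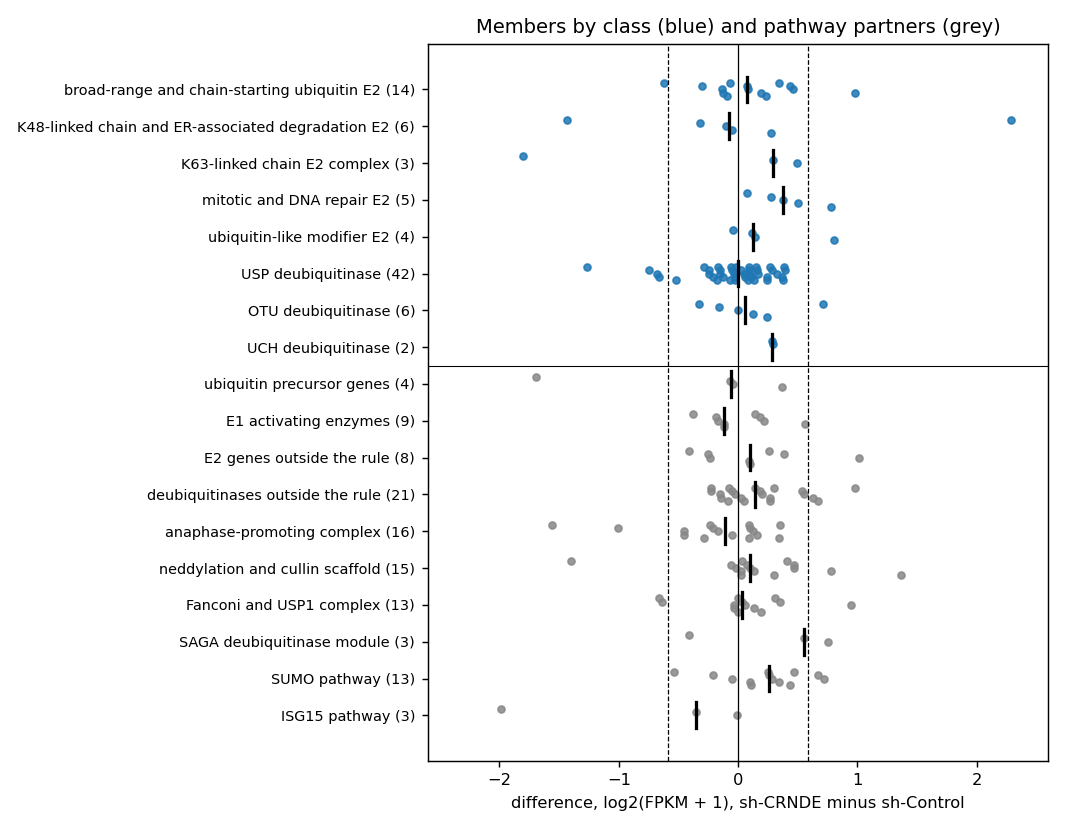
Difference in log2(FPKM + 1), sh-CRNDE minus sh-Control (x axis), of each member by class (blue) and of each pathway partner by list (grey), with the number of genes in parentheses. Black bars are medians and dashed lines mark 1.5-fold; the class medians of the members run from -0.08 to 0.37.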

How the data were processed

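Total RNA of 1 NB4 library per group was prepared with the TruSeq RNA Sample Prep Kit v2. The authors deposited FPKM per gene, and the submitters' processing notes name fastp 0.20.0, HISAT2 2.0.4, StringTie 1.2.3 and GRCh38. The gene annotation and strand setting are not given in the sources used here. Genes were joined by Ensembl identifier, and 11508 of 11619 matched GENCODE release 44. Differences are of log2(FPKM + 1), with no further scaling and no filter on low values, and no test was possible. Members, classes and partner lists were chosen with earlier results of these data known. Named were CRNDE, members past 1.5-fold, the 5 most abundant, the 3 nearest the threshold, close paralogs and partners of members, and partner genes past 1.5-fold. A few genes are not reported here by name. Other members were named after their values were seen. Stretches of 50 bases shared between transcripts, on either strand, were counted over all GENCODE transcripts, also after the values were seen. Python 3.11.15, numpy 2.4.6, pandas 2.3.3 and matplotlib 3.10.9 were used, and the computation was tested on simulated data.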

Additional observations from a re-analysis of the deposited data

How the results depend on the processing

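With a threshold of 2-fold, 4 members were past it, 1 higher and 3 lower, and 7 partner genes, 2 of them higher. With a pseudocount of 0.1, 26 partner genes were past 1.5-fold, 11 of them lower, and with 0.01 it was 28, 17 higher and 11 lower. The cause was not tested. Of the counts and medians of the members, E2 genes, deubiquitinase genes and partner genes, 79 alternatives stayed within 1.5 times the count or within 0.1 of the median given above, and 10, all given in the sentences before, did not. The alternatives were the thresholds, pseudocounts, centring, quantile normalization, rescaling without mitochondrial, ribosomal and small RNA genes, subtraction by GC content, leaving out members that overlap a read-through gene, and filters on low values or on genes listed at 0. After smaller pseudocounts USP46 (-1.79 with 0.1) and USP31 (-1.59) were farther from 0 than UBE2G1 (-1.57), and USP53 and USP18 crossed 1.5-fold. For the 12 members past 1.5-fold and the 3 nearest it, 113 alternatives kept the side of 1.5-fold and 5 did not, which were OTUD6B, USP19 and USP21 inside it after GC subtraction and USP35 past it at -0.88 and -0.94 with the smaller pseudocounts. None of these differences changed its sign. No paired analysis was possible because each group has 1 library, and none could be left out. Without replicates, a difference between these libraries cannot be told apart from one between infections or library preparations, and the unknown depth limits all values near 1 FPKM.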
